A study of Homo sapiens with 9 samples.

Results

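The regions described here are stretches of accessible chromatin that were called as a peak in the list labelled NS rottlerin and in none of the other 3 lists. The 4 peak lists were merged, peaks that overlapped or touched were joined, and a merged region was kept when its only peak came from that list. This gave 3429 members of the 40703 merged regions on numbered and sex chromosomes (8.42%, 95% Wilson interval 8.16 to 8.70), or 14.4% of the 23760 regions that the list holds. The members were selected on the presence and absence of peak calls, so their peak scores are given as a description only. The number rests most on the longest list: without the list labelled SW rottlerin it was 6902.

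The series holds 9 samples of Jurkat cells with 1 library each, from FAIRE-seq except for 1 sample of total input DNA. The lists used here are labelled NS, for non-stimulated cells, or SW, for cells stimulated with PMA and ionomycin for 4 h, washed and cultured for 1 day, each pre-treated with the solvent DMSO or with 15 µM rottlerin for 1 h. Rottlerin was used in the study as an inhibitor of protein kinase C. The labels and the study's methods differ on the length of the stimulation, and the time given here is that of the labels. The other 5 samples were not analysed here. Jurkat is an established line from a human T cell leukaemia, and no list has a replicate. The labels assign 2 of the lists to rottlerin, while the study's methods describe peak calling in the DMSO samples. The lists are therefore named by their labels, the list labelled NS rottlerin may not come from rottlerin-treated cells, and the state of its cells was not inferred.

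FAIRE recovers DNA that is free of nucleosomes, which marks promoters, enhancers and other sites held open by bound factors. In T cells such sites are occupied by lineage factors of the ETS, RUNX, GATA and E protein families, and PMA with ionomycin brings in the inducible factors AP1, NF-kB and NFAT. ETS proteins such as ETS1 and GABPA read a GGAA core, AP1 is a dimer of FOS and JUN proteins, and NFAT enters the nucleus when calcium rises.

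The motif whose share in the members was furthest above that in all merged regions was ETS, searched as CCGGAAG or CAGGAAG on both strands. Its shares were 33.2% and 24.0%, and the GATA motif came close, with 40.5% and 31.5%. From the high-scoring members with an ETS match, 5 follow, with 40 bases on either side of the match, which is in capitals. They were chosen after their values were seen. Members near EXT1, DKK3, ADGRL1 and LRIG2, with scores of 110, 111, 102 and 98, are among those not shown. Each sequence is the plus strand of GRCh37, the same build as the Hg19 of the lists. The top member holds CCGGAAG and the other 4 hold CAGGAAG, or its reverse complement CTTCCTG.
BSND, chr1:55461610-55461696: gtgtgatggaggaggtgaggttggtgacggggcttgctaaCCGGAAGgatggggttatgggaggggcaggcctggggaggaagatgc
PLXNA4, chr7:131815459-131815545: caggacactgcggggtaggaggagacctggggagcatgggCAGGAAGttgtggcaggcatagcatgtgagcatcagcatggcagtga
LNP1, chr3:100159983-100160069: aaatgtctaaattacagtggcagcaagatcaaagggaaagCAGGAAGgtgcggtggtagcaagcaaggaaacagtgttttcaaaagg
SLC35G4, chr18:11577932-11578018: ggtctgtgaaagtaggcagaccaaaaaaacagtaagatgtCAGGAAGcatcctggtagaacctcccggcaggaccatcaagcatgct
FAM240A, chr3:46676367-46676453: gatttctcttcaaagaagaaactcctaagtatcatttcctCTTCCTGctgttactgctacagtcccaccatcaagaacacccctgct

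These members scored 147, 114, 97, 96 and 92 in the order shown, and the names are those of the nearest protein-coding genes. The match lay 11.5, 42.5, 4.5, 122.5 and 29.5 bp from the mid-point of the region. In 4 of the 5 it was thus within 50 bp of the mid-point. The examples do not stand for all members, where 54.5% of ETS matches (51.9 to 57.1) were within 50 bp.

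The member near NFATC1, at chr18:77128805-77129025, held 2 ETS matches. NFATC1 encodes a calcium-regulated NFAT factor, and the member lay 26.9 kb from a transcription start site (TSS) of the gene. It was intronic, and its nearest protein-coding gene was ATP9B. The sequence is labelled with NFATC1 because the member lay within 50 kb of that TSS. The match nearer to the mid-point is in capitals.
NFATC1, chr18:77128865-77128951: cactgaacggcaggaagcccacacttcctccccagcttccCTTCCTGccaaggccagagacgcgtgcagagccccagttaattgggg

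For the inducible factors, 2 of the 3 highest-scoring members with an AP1 match (TGACTCA, whose reverse complement is TGAGTCA) and the 3 highest-scoring with an NF-kB match are shown by the same limits, with scores of 88 and 84 for AP1 and of 97, 67 and 62 for NF-kB.
BOD1L1, AP1, chr4:13679931-13680017: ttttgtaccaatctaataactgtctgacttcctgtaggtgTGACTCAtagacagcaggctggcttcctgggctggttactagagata
KATNAL1, AP1, chr13:30689164-30689250: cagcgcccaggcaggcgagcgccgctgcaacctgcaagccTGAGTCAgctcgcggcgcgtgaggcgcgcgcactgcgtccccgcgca
LNP1, NF-kB, chr3:100159899-100159988: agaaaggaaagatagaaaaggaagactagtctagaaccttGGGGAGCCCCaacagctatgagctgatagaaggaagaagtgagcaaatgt
SLC30A1, NF-kB, chr1:211796932-211797021: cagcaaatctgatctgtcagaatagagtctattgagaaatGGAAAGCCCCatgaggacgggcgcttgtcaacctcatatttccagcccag
KLC1, NF-kB, chr14:104091844-104091933: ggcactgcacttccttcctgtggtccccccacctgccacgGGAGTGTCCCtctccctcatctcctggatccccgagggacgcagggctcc

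In these 5 regions the inducible-factor match lay 66.5 and 93.5 bp from the mid-point for AP1 and 87, 111 and 50 bp for NF-kB, so that none was closer than 50 bp. The AP1 examples do not stand for all members, where 50.6% of AP1 matches (45.3 to 55.9) were within 50 bp. LNP1 appears in both sets because the same member holds an ETS match near its mid-point and an NF-kB match 87 bp away from it. No member held the composite site in which GGAAA is followed after 3 bases by TGANTCA, the arrangement that NFAT and AP1 bind together. A count of 0 of 3429 allows a share of up to 0.0875% if 3 counts are taken as the limit, and up to 0.112% by the Wilson interval used elsewhere. The composite was also absent from the 3187 regions of NS DMSO alone and was present in 0.0553% of regions in all 4 lists, and 47 of the 103 matches in all merged regions (0.253%) were in SW rottlerin alone.

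The members were weak peaks of their list. The score, a MACS2 value that grows with the significance of a peak (−log10 q multiplied by 10), had a median of 32 (lowest 10, highest 147, interquartile range 22 to 45), and the fold enrichment over the total input had a median of 3.55 (1.79 to 6.55). In the same list the median score was 41 for regions shared with 1 other list, 51 with 2 others and 92 where all 4 lists had a peak. Of the members, 29.95% had a score at or under 23, the value that bounds the lowest 10% of the list, and 10.6% exceeded the list's median of 57. Their median width was 201 bp (165 to 1512), against 320 bp for the peaks found in all lists. Regions called in only 1 of the other lists had like values, with median scores of 32 for NS DMSO, 29 for SW DMSO and 31 for SW rottlerin.

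**Figure D1:**
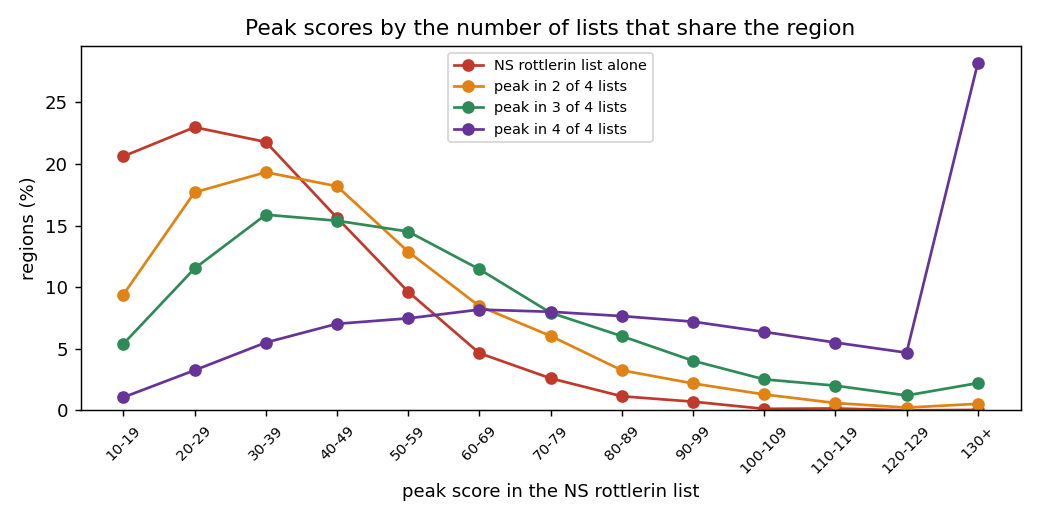
Share of regions (%, vertical) by peak score in the list labelled NS rottlerin (horizontal, in steps of 10), for regions called in that list alone and in 2, 3 or all 4 lists. Members lie at low scores, with a median of 32, and the median climbs to 41, 51 and 92 as more lists share the region.

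Most members were far from any peak of another list. The median gap to the nearest such peak was 14358 bp, with 181 members (5.28%) closer than 1 kb and 11 within 100 bp. Just inside the rule, these 11 lay 1 to 69 bp from a foreign peak and scored 10 to 49, with a median of 20. Just outside it, 101 regions of the list shared at most 100 bp with a foreign peak and scored 10 to 71, with a median of 24. The members were also mostly isolated from each other: 3065 had no other member within 20 kb, 314 were in pairs, 42 in groups of 3 and 8 in groups of 4. One of the groups of 4 lay within 11.5 kb in FGD5, which encodes a guanine nucleotide exchange factor, with scores of 80, 57, 22 and 45, and 2 of its regions held an ETS match. The other spanned 39.4 kb around SLC2A12, a glucose transporter gene, with scores of 74, 18, 19 and 55.

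The 10 highest-scoring members show the kind of place at which they were found. The top score of 147 belonged to chr1:55461530-55461754, 2.96 kb from the TSS of BSND, a chloride channel subunit gene of the kidney and inner ear. The next, chr12:11002115-11002440 with a score of 119, was in an intron 0.204 kb from a TSS of PRR4. The region chr7:131815327-131815593, with a score of 114, was in an intron nearest the semaphorin receptor gene PLXNA4, and the nearest peak of another list was 307 kb away. Others were in 3′UTR sequence nearest the WNT antagonist gene DKK3 (111) and the adhesion receptor gene ADGRL1 (102), upstream near AMT (111), and in introns nearest the heparan sulphate synthesis gene EXT1 (110), the chaperone gene DNAJC1 (109) and the calcium channel gene ITPR2 (103), with the tenth between genes near EIF3M (102). ETS matches were present in 5 of these 10 regions (BSND, PLXNA4, DKK3, EXT1 and ADGRL1). The ITPR2 region lay only 0.897 kb from a peak of another list.

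By location, members were mostly distal. Introns held 61.2% of the mid-points and intergenic sequence 17.9%, together 79.1% (77.8 to 80.5), against 70.0% of all merged regions and 49.9% of the regions found in all 4 lists. The sequence 1 to 10 kb before a TSS held 7.52%, other exons 5.45%, the promoter (1 kb before a TSS) 3.09%, 3′UTRs 2.92% and 5′UTRs 1.87%. The median distance to a TSS was 7061 bp, and 17.1% of members were within 1 kb of one. The regions of the other lists alone had nearly the same places, with 80.8% in introns or between genes for NS DMSO, 82.5% for SW DMSO and 78.5% for SW rottlerin. Of all merged regions on a chromosome, members made up between 6.02% (4.92 to 7.35) on chr19 and 11.7% (9.68 to 14.1) on chr18, leaving aside Y, where there was 1 member of 18 regions.

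Base composition was that of distal sites. The central 300 bp of the members had a median GC content of 43.7% and a median of 3 CpG dinucleotides, whereas regions found in all lists had 57% and 15. CpG-island-like sequence, with GC over 50% and a ratio of observed to expected CpG over 0.6, was found in 6.07% of members (5.32 to 6.92). This was less than the 10.1% (9.39 to 10.8) of SW rottlerin alone, more than the 3.51% (2.93 to 4.21) of NS DMSO alone, and far under the 50.2% of regions in all 4 lists. The share was 10.8% without the list labelled SW rottlerin and 12.1% when only the upper 50% of scores in every list was used.

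ETS matches were present in 1138 of 3429 members, or 33.2% (31.6 to 34.8). In the regions of the other lists alone the share was 15.0% (13.8 to 16.3) for NS DMSO, 12.8% (11.4 to 14.5) for SW DMSO and 19.5% (18.7 to 20.5) for SW rottlerin, and it was 27.4% (26.5 to 28.2) where all 4 lists had a peak and 24.0% over all merged regions. None of these intervals overlaps that of the members. The intervals cover counting error between regions and not error between libraries, because each list comes from 1 library.

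Regions of 1 list and regions in all lists differed in the form of the ETS match. CAGGAAG was present in 30.8% of members (29.3 to 32.4) and CCGGAAG in 3.41% (2.85 to 4.07). In the regions of all 4 lists the shares were 16.4% for CAGGAAG and 12.6% for CCGGAAG, the form that contains a CpG. Those regions also had a median of 15 CpG dinucleotides against 3 in members. The forms were not compared within classes of GC content. CAGGAAG was also the main form in the other lists alone, with 13.6% against 1.79% in NS DMSO, 11.0% against 1.99% in SW DMSO and 17.1% against 2.83% in SW rottlerin. At least 2 ETS matches were found in 211 members (6.15%, 5.397 to 7.01), compared with 1.41% of NS DMSO alone, 0.739% of SW DMSO alone and 2.45% of SW rottlerin alone. Regions in all 4 lists had 5.11% (4.71 to 5.54), an interval that overlaps that of the members.

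**Figure D2:**
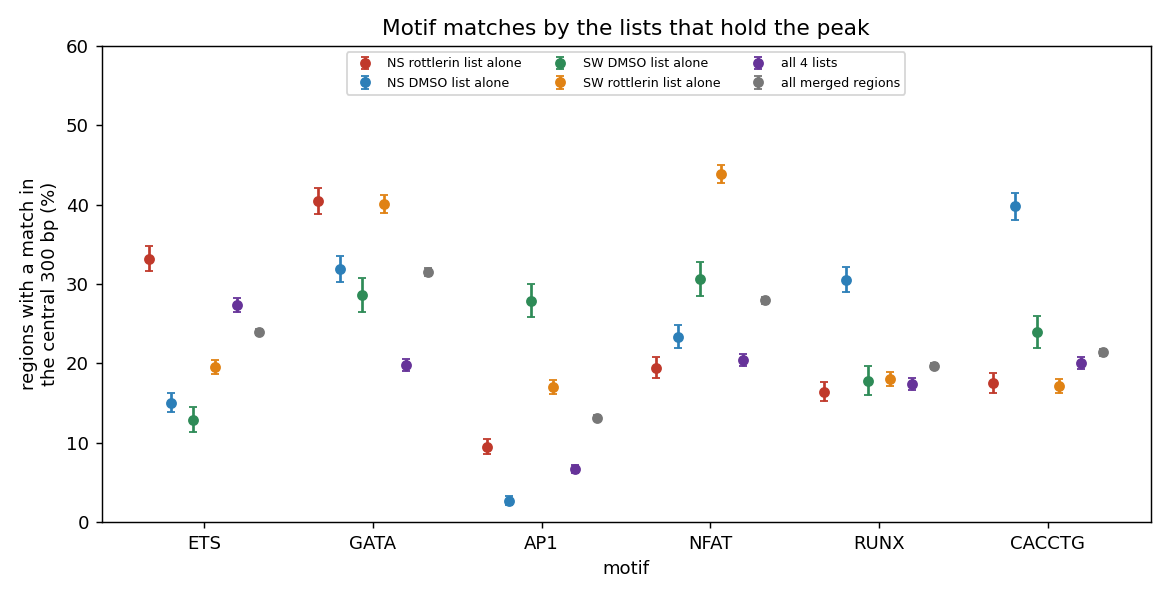
Share of regions (%, vertical) with a match in the central 300 bp for 6 motifs (horizontal), for members, for regions of each other list alone, for regions in all 4 lists and for all merged regions. Points are shares and bars 95% Wilson intervals, and the ETS share of members (33.2%) is above the other groups, whereas their NFAT share (19.4%) is lower than in the other lists alone.

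ETS matches lay at the middle of the members. Of 1391 matches, 54.5% (51.9 to 57.1) were within 50 bp of the mid-point, against 40.95% (36.8 to 45.2) in NS DMSO alone, 43.8% (37.6 to 50.1) in SW DMSO alone, 46.8% (44.4 to 49.2) in SW rottlerin alone and 39.6% (38.0 to 41.2) in all 4 lists. In the 20 bp around the mid-point there were 51.04 ETS matches for each 1000 members, compared with 15.1, 14.2 and 21.3 for each 1000 regions of the NS DMSO, SW DMSO and SW rottlerin lists alone. At 140 bp from the mid-point the members had 7.58 on one side and 11.4 on the other, and the other lists alone had 7.01 to 9.10. The rule uses no base of the sequence.

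**Figure D3:**
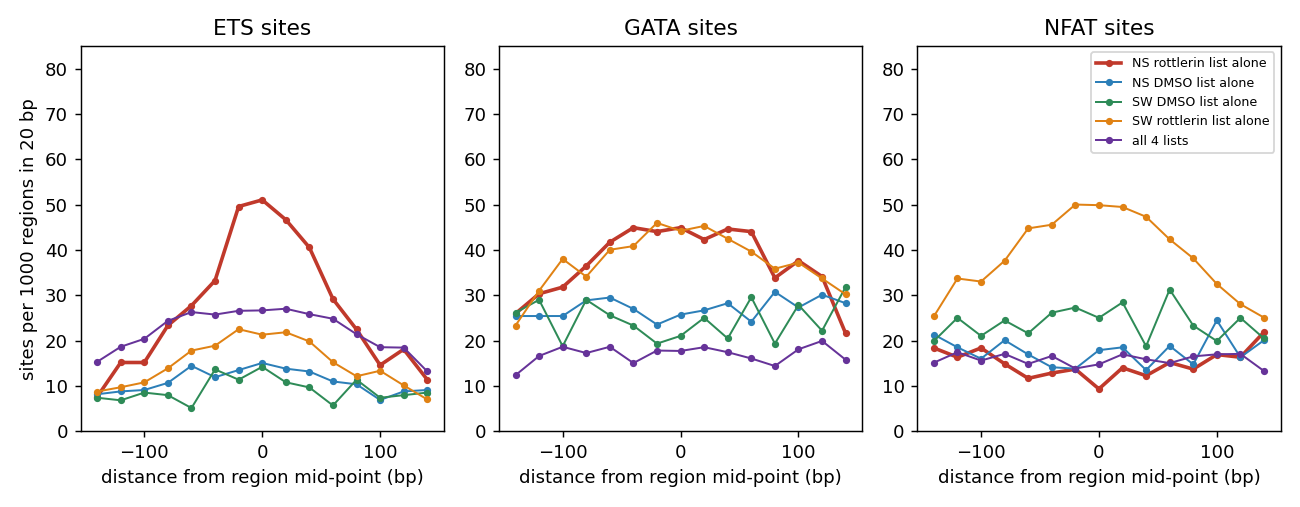
Number of ETS, GATA and NFAT matches for each 1000 regions (vertical) in steps of 20 bp by distance from the region mid-point (horizontal, bp), for members, regions of each other list alone and regions in all 4 lists. ETS matches of the members peak at 51.04 at the mid-point, GATA matches of the members follow those of SW rottlerin alone, and NFAT matches of the members show no central peak.

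The same share was examined in all 15 combinations of lists. The 8 combinations that include the list labelled NS rottlerin had ETS shares from 22.8% to 33.2%, and the 7 without it had shares from 12.8% to 19.5%, so that the ranges did not overlap. Among the 8, members had the highest share and the regions shared with both DMSO lists but not SW rottlerin the lowest. Regions shared with SW rottlerin only had 30.3% (28.8 to 31.9), and those shared with NS DMSO only 29.1% (26.2 to 32.3). Both intervals overlap that of the members, which does not show that the shares are equal, and the difference was not tested. Among regions with a GC content of 40 to 50% the ranges were 23.3% to 34.9% with the list and 12.7% to 18.3% without it. For NFAT the order was the other way in part: combinations with the list had 19.2% to 26.3% and those without it 23.4% to 43.8%.

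**Figure D4:**
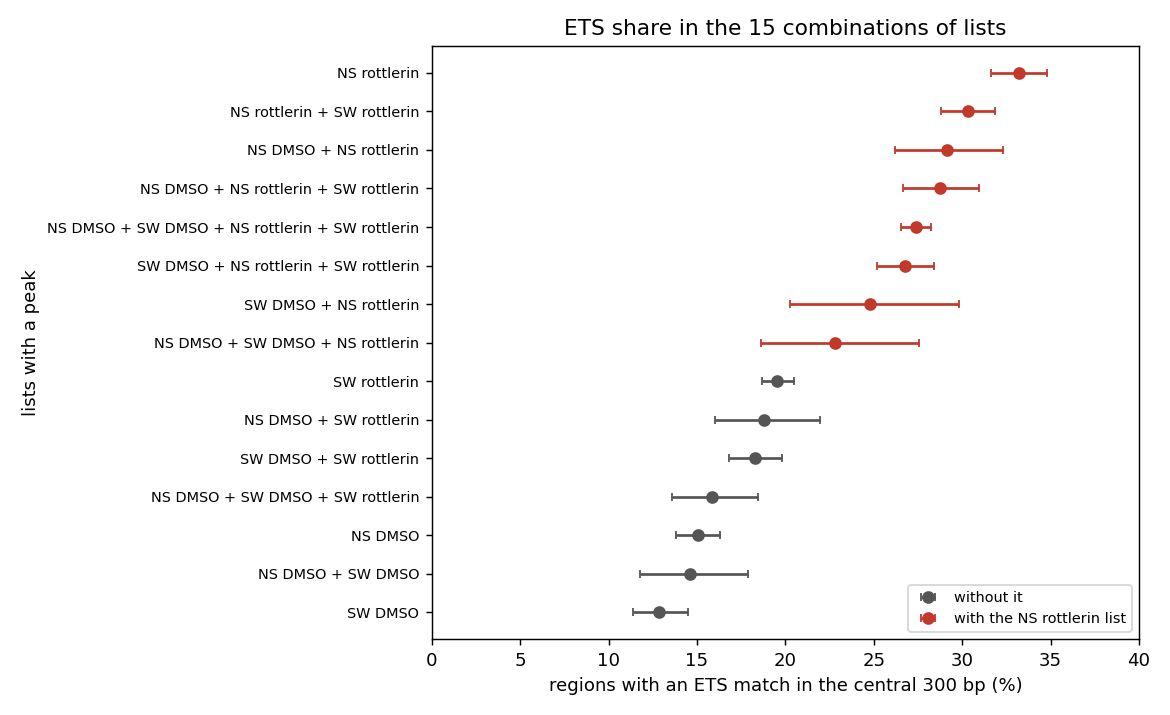
Share of regions with an ETS match (%, horizontal, bars are 95% Wilson intervals) in the 15 combinations of lists that hold a peak (vertical), ordered by the share. The 8 combinations with the NS rottlerin list occupy the upper part, from 22.8% to 33.2%, and the 7 others lie from 12.8% to 19.5%.

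ETS shares depended on GC content, and the members were above the other groups in 3 of 4 classes. With a GC content under 40%, 22.4% of members (19.9 to 25.2) held a match and 8.30% to 16.1% of the regions of the other groups did. At 40 to 50% the member share was 34.9% (32.7 to 37.3) against 13.7% to 24.2%, and at 50 to 60% it was 47.1% (43.1 to 51.2) against 22% to 32.5%. At 60% or more, 31.7% of 243 members (26.2 to 37.8) held a match, and this interval overlapped those of every other group (19.8% to 29.4%).

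The share also moved with peak score, a value that comes from the same calls as the rule and is partly fixed by it. It was 21.5% (18.9 to 24.4) for members scoring 10 to 21, 35.3% for 22 to 31, 35.0% for 32 to 44 and 40.7% (37.5 to 43.9) for 45 to 147. In the other lists alone the lowest and highest of 4 score classes had 10.2% and 16.1% (NS DMSO), 11.0% and 15.0% (SW DMSO), and 17.3% and 22.2% (SW rottlerin). Location made little difference, with ETS shares of 33.0% in introns, 32.9% between genes and 34.0% in promoters.

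**Figure D5:**
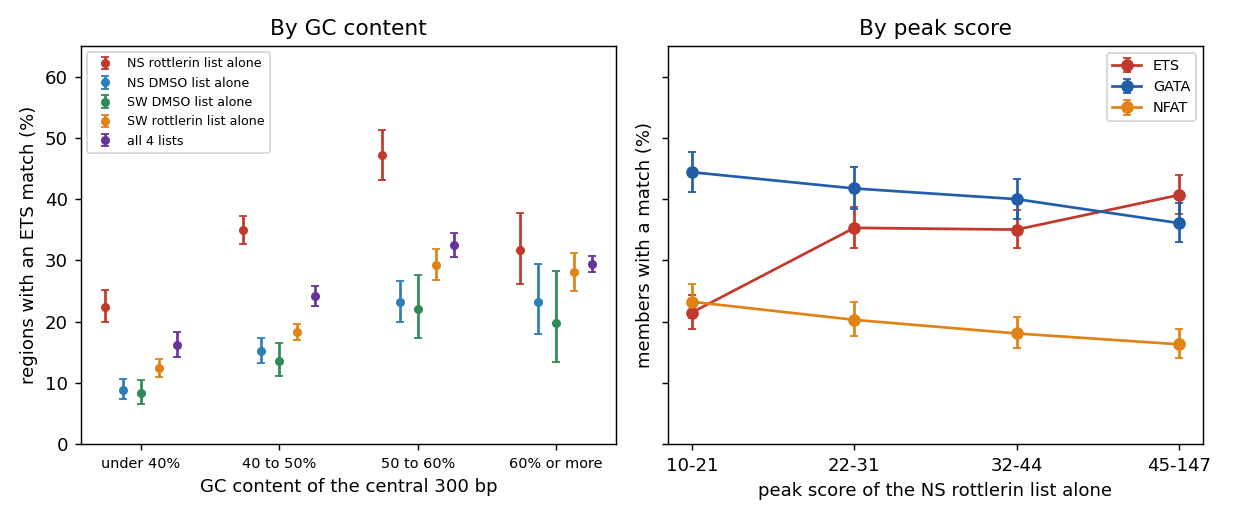
Left, share of regions with an ETS match (%, vertical) by GC content of the central 300 bp (horizontal) for members, regions of each other list alone and regions in all 4 lists. Right, share of members with an ETS, GATA or NFAT match by class of peak score, where ETS goes from 21.5% to 40.7%, GATA from 44.4% to 36.1% and NFAT from 23.2% to 16.3%, with bars for 95% Wilson intervals.

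The motif of GATA factors, read in T cells by GATA3 and searched as AGATAA or as TGATAA, was the most frequent of the 6 families in members, with 40.5% (38.8 to 42.1). SW rottlerin alone had almost the same share, 40.05% (38.9 to 41.2), and NS DMSO alone and SW DMSO alone had less, 31.9% and 28.6%. At 40 to 50% GC the values were 43.2% for members and 43.5% for SW rottlerin alone, so the members differed from the DMSO lists alone and not detectably from SW rottlerin alone. Matches were within 50 bp of the mid-point in 39.97% of cases (37.8 to 42.2), against 32.5% and 30.1% in the DMSO lists alone and 39.4% (37.9 to 40.9) in SW rottlerin alone. Of the members 61.0% held an ETS or a GATA match and 12.7% held both. GATA matches were present in 38.3% (35.5 to 41.2) of members with an ETS match and in 41.6% (39.6 to 43.6) of those without one, with overlapping intervals.

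Motifs of inducible factors had shares in members below those of all merged regions, and their order against the other groups varied. NFAT (TGGAAA) was found in 19.4% (18.1 to 20.8), against 23.4% in NS DMSO alone, 30.6% in SW DMSO alone, 43.8% in SW rottlerin alone and 27.9% of all merged regions, and the share of 20.4% (19.7 to 21.2) in all 4 lists overlapped that of the members. Of the 774 NFAT matches of members, 27.9% (24.9 to 31.2) were within 50 bp of the mid-point, compared with 29.5% (26.5 to 32.6) in NS DMSO alone, 35.5% in SW DMSO alone, 33.2% in all 4 lists and 42.0% (40.5 to 43.5) in SW rottlerin alone. AP1 was found in 9.48% of members (8.54 to 10.504), between the 2.67% (2.16 to 3.29) of NS DMSO alone and the 27.9% (25.8 to 29.998) of SW DMSO alone and 17.1% (16.2 to 17.9) of SW rottlerin alone, and above the 6.70% (6.24 to 7.18) of all 4 lists. The AP1 matches of members were central in 50.6% of cases (45.3 to 55.9). NF-kB was present in 2.54% (2.06 to 3.12), EGR, the motif of the early growth response factors (GCGTGGGCG or GCGGGGGCG), in 0.846% and the NR4A motif AAAGGTCA in 0.992%, each below its share of all merged regions (4.33%, 2.51% and 1.45%). The NF-kB share of NS DMSO alone, 1.95% (1.52 to 2.49), overlapped that of the members.

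RUNX and E-box motifs were not more frequent in members than in the regions of the other lists alone beyond counting error. RUNX (TGTGGTT or TGCGGTT) was found in 16.4% of members (15.2 to 17.7), against 30.6% in NS DMSO alone (28.99 to 32.2), and with intervals that overlap those of SW DMSO alone (17.8%), SW rottlerin alone (18.0%) and all 4 lists (17.4%). RUNX matches were nonetheless central in members, with 57.3% of 609 within 50 bp of the mid-point, and in NS DMSO alone with 55.6%. The E-box CACCTG, whose reverse complement CAGGTG is bound by ZEB1 and E proteins, was found in 17.5% of members (16.3 to 18.8), compared with 39.8% in NS DMSO alone (38.1 to 41.5) and 17.1% in SW rottlerin alone. The E-box CAGCTG was found in 15.8%, TCF/LEF (CTTTGAA or CTTTGAT) in 16.4%, STAT (TTCNNNGAA) in 11.9%, and CTCF, an insulator protein's motif, in 2.95% (2.43 to 3.57), against 17.1%, 15.0%, 9.53% and 2.38% of all merged regions. CTCF matches were more frequent in the highest class of scores (5.03%, 3.78 to 6.66) than in the lowest (1.17%, 0.636 to 2.14). Of the remaining motifs, CATCTG was found in 22.5% of members, IRF in 6.45%, the SP/KLF motif GGGCGGG in 5.28% and the CRE motif TGACGTCA in 0.321%, against 21.4%, 5.67%, 15.5% and 0.985% of all merged regions.

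Within 50 kb of a TSS, 4144 of 20163 protein-coding genes (20.6%) had a member, or 23.9% of the 17310 genes with any merged region in that window. A member was counted for every gene whose window holds it, and the number was 7350 genes without the list labelled SW rottlerin and 2425 when only the upper 50% of scores in every list was used. Of these genes 3497 had 1 member, 546 had 2 and 101 had 3 or more. ETV6, an ETS-family repressor gene rearranged in leukaemia, and TGFBR1, a TGF-beta receptor gene, had the most, with 5 each.

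The 5 members near ETV6 were spread over the promoter and introns. The one at chr12:11802204-11802669 was 0.171 kb from a TSS with a score of 35, and those at chr12:11884512-11885149 and chr12:11911851-11912531 scored 36 and 23. The last pair, chr12:11919131-11919353 and chr12:11923113-11923389, scored 36 and 80. ETS matches were present in 2 of the 5. Near TGFBR1 the scores were low, from 14 to 30, and 2 of the 5 regions held an ETS match. Among the 19 genes with 4 members, the highest-scoring were GMDS (53, 31, 96 and 13), a fucose synthesis gene, ABCA4 (89, 13, 71 and 12), a retinoid transporter gene, and FGD5.

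Genes of T cell identity and activation were examined by lists, and the share of genes with a member is set beside the share of regions that are members, which was 8.42% over all merged regions. Among T-lineage and T-leukaemia transcription factors, 10 of 25 genes had a member, and 18 of the 248 merged regions around them were members (7.26%). ETV6 had 5, RUNX1, which encodes a core T cell and haematopoietic factor, had 4, with scores of 32, 29, 16 and 30, and ETS1 had 2, with scores of 28 and 33. The members near HHEX, a haematopoietic homeobox gene, and TCF12, an E protein gene, scored 45 and 41. Read against 20.6% the share of genes was higher, and read against 8.42% the share of regions was not.

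Cytokine and chemokine genes had a member in 9 of 22 cases, but 6 regions account for all 9 genes, because neighbours share them. Members were 6 of 74 merged regions around these genes (8.11%), near the 8.42% over all merged regions. The regions near TNF, LTA and LTB, which adjoin on chr6, scored 47 and 15 and were both counted for all 3 genes. A member near CCL5, a chemokine gene, lay in 3′UTR sequence nearest HEATR9 with a score of 46 and an ETS match. An intronic member nearest RAD50 counted for IL4 and IL13 and scored 14, and the member near IFNG also scored 14. XCL1 and XCL2 shared a region with a score of 34. No member lay within 50 kb of IL2.

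Immediate-early genes had a member in 6 of 26 cases and the NFAT and NF-kB genes in 4 of 15, against the 20.6% of all protein-coding genes. DUSP6, a phosphatase of the ERK pathway, had 3 members (14, 16 and 31), of which 2 held an ETS match, and DUSP10 had 2 (27 and 38). DUSP4 had 1 with a score of 55, JUN had 1 with a score of 38 and 2 ETS matches, and FOSB had 1 with a score of 28. In the second group NFATC1 had the region with a score of 85 shown above, NFKB1 had 1 with 50, NFKB2 1 with 23 and the inhibitor of apoptosis gene BIRC3 1 with 13. Members were 5.42% and 4.12% of the merged regions around these lists.

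T cell receptor signalling genes had a member in 9 of 27 cases, with 9 members among 191 regions (4.71%). The region chr11:118205458-118205725, with a score of 34, is upstream near CD3D and was counted for CD3D, CD3E and CD3G, which encode chains of the CD3 complex. CD6 had 1 with a score of 37, and the gene of the adaptor LCP2 had 1 in an intron 0.394 kb from its TSS with a score of 22.

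Memory, homing and exhaustion genes had a member in 9 of 23 cases (11 of 157 regions, 7.01%). CD44, an adhesion receptor gene, had 3, with scores of 32, 32 and 56. The member at chr3:114009837-114010016, with a score of 39, lay 0.021 kb from a TSS of TIGIT, an inhibitory receptor gene, and was the only merged region within 50 kb of it. The member at the 5′UTR of IL7R, the interleukin-7 receptor gene, was 0.006 kb from a TSS, scored 23 and held ETS, GATA and RUNX matches, and it was named after its values were seen. BACH2, a repressor gene of memory cells, had 1 member with a score of 43, and IRF8 had 1 with a score of 34.

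Survival and death genes had a member in 7 of 17 cases (10 of 137 regions, 7.30%). FAS, a death receptor gene, had 3 (13, 39 and 22) and MCL1, an anti-apoptotic gene, had 2 (23 and 32). The members near TNFRSF10B, TNFRSF10A and CFLAR, which act in the same death pathway, scored 48, 39 and 46. Housekeeping genes had a member in 2 of 25 cases (RPL13A and TUBB, with scores of 22 and 14), with 2 of 127 regions (1.57%). The genes followed up in the study, which the study chose on these samples, had a member in 7 of 20 cases (8 of 156 regions, 5.13%), among them CREB5 with a score of 46. T cell markers had a member in 4 of the 11 genes found in the annotation (3 of 69 regions, 4.35%). The B cell, myeloid and epithelial or liver lists of 6 genes each had none, among only 22, 11 and 12 merged regions, numbers too small to set beside those of T cell genes.

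The label of the list was checked on its own peaks. A peak within 1 kb of a TSS was present at 5 of the 11 T cell markers found, namely CD3D, CD3E, CD247, CD28 and LCK. The markers CD3G, CD2, CD5, CD7, TRAC and TRBC2 had no such peak. Nor had any of the 6 B cell or 6 myeloid markers, and of the epithelial and liver genes KRT8 alone had such a peak. The other lists gave 6 T cell markers each. For the state, 1 of 22 cytokine genes (IL3) had such a peak in this list, as against 1 in NS DMSO, 2 in SW DMSO and 6 in SW rottlerin. For immediate-early genes the numbers were 17 of 26 here, 17 in NS DMSO, 20 in SW DMSO and 22 in SW rottlerin, and for NFAT and NF-kB genes 11 of 15 here, 4 in NS DMSO, 10 in SW DMSO and 12 in SW rottlerin. Survival and death genes had such a peak in 9 of 17 cases here, 4 in NS DMSO, 9 in SW DMSO and 13 in SW rottlerin, and the genes followed up in the study, chosen on these samples, in 9 of 20 here, 4 in NS DMSO, 12 in SW DMSO and 15 in SW rottlerin. Cytokine and immediate-early genes thus gave the same numbers here as in NS DMSO, but not the same genes. The cytokine gene was IL3 here and IL5 in NS DMSO. BATF and EGR3 had such a peak here and not in NS DMSO, and FOS and DUSP2 the reverse. The NFAT and NF-kB, survival and death, and followed-up genes gave numbers above those of NS DMSO. Memory, homing and exhaustion genes had 12 here and 8 in NS DMSO, and T cell receptor signalling genes 21 and 19. T-lineage and T-leukaemia factors had 18 and 19, and housekeeping genes 24 and 23. This list also holds more peaks than NS DMSO, 23835 against 18977, and the share over all genes was not computed. With 1 library each, a difference of state, of agent or of library cannot be told apart.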

How the data were processed

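FAIRE-seq peak lists of 4 Jurkat samples were used. By the study's methods, the authors trimmed reads with CutAdapt, used Bowtie2 for mapping to Hg19 and Picard against duplicates, and called enrichment over the total input with MACS2; versions are not given in the sources used here. Each deposited list holds, per peak, a score, the enrichment as a ratio (fold over input), and the −log10 of the p-value and q-value. The score equalled 10 times −log10 q cut to a whole number for 93422 of 93425 peaks. Read depth is unknown from the lists, which hold 18977 to 30409 peaks on the autosomes, X and Y.

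Lists were merged with a minimum overlap of 1 bp or touching ends. Mid-points were allocated by GENCODE release 44 on GRCh37, with UTRs before other exons, then introns, promoters (1 kb before a TSS) and upstream sequence (1 to 10 kb), over coding and non-coding genes. Consensus motifs (18) were sought on both strands in the central 300 bp; NF-kB, IRF and CTCF used longer patterns. Shares have 95% Wilson intervals, which cover counting error only; no test and no p-value is given, with 1 library a list. The members, motifs and gene lists were chosen with earlier results of these data known. Genes named are, per list, up to 5 with the most members or the highest-scoring member, the 5 with the most members within 50 kb (ties broken by score), the 10 highest-scoring members, and the 3 highest-scoring members with an AP1, NF-kB or composite match; others named in the text, including ETS examples, were chosen after their values were seen. Python 3.11.15, numpy 2.4.6, scipy 1.17.1 and pysam 0.24.0 were used, and the scripts were tested on simulated data. Some items that these rules select are not reported here. The alternatives are listed at the end.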

Additional observations from a re-analysis of the deposited data

How the results depend on the processing

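Each of 10 results was recomputed under the alternatives that apply to it, giving 89 values, of which 59 stayed within the 95% interval of the reported share, or within 1.5 times the reported count. With the higher-scoring 50% of each list there were 1664 members, 74.8% in introns or between genes, 38.6% with ETS, 17.2% with NFAT and 21.4% with RUNX matches, 12.1% CpG-island-like, and 2425 genes within 50 kb. With each list reduced to its 18977 highest-scoring peaks, the values were 77.6% for location, 36.3% for ETS, 11.0% for AP1 and 9.04% for CpG-island-like sequence. Without the list labelled SW rottlerin there were 6902 members and 7350 genes, with 76.9% for location, 11.5% for AP1, 21.9% for NFAT, 42.3% for GATA, 16.3% for CACCTG and 10.8% for CpG-island-like sequence. Without the list labelled NS DMSO, AP1 was 8.06%, RUNX 18.7% and CACCTG 20.01%. The central 500 bp gave 12.6% for AP1, 35.0% for NFAT, 54.0% for GATA, 39.5% for ETS, 20.8% for RUNX and 29.6% for CACCTG, as a longer window holds more matches. Promoters placed first gave 73.8% for location, and a window of 10 kb gave 1574 genes. A q-value of 0.05 or less, a gap of 1 kb, leaving out the list labelled SW DMSO, and autosomes only moved none of these 10 results past those limits. The cause of the shifts with score and with the lists left out was not tested. The ETS share of members stayed above that of each other list alone: the highest of those was 22.2% with equal numbers of peaks, 23.8% with the higher-scoring 50% and 26.1% with the central 500 bp. No paired analysis was possible because each list comes from 1 library, so that the groups share only 1 replicate number. Precision is limited by depth, which is unknown: a region without a call in a list may have been below that list's threshold.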

Other observations

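A scan of all 2080 sequences of 6 bases (with their reverse complements), chosen after seeing the data, compared members with the 12365 regions of the other lists alone. The 4 with the largest excess in members were AGGAAG (57.7% against 37.8%), CAGGAA (51.4% against 34.9%), ACTTCC (37.0% against 22.6%) and ACAGGA (37.2% against 25.7%), and all overlap the ETS core or its flank. AGGATG, which holds the related core GGAT, was also higher (27.6% against 19.4%). At the other end were TGGAAA (19.4% against 36.7%), GGAAAA (24.1% against 35.6%) and ATGGAA (13.9% against 24.7%), which overlap the NFAT motif, followed by CCCACC (17.4% against 25.6%) and ACCCAC (14.6% against 22.4%). Sequences of 6 bases overlap and are not independent of each other.

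Of the members in a promoter or 5′UTR, chosen after their values were seen, the 3 with the highest scores were at INCA1 (97), MTERF1 (95) and BIRC5 (91), within 0.014, 0.007 and 0.027 kb of a TSS. INCA1 encodes an inhibitor of cyclin-dependent kinase, MTERF1 a mitochondrial transcription terminator and BIRC5 survivin, an inhibitor of apoptosis. The nearest peak of another list was 27.9, 48.8 and 26.7 kb away, so that no other list had a peak at these promoters. The INCA1 and BIRC5 regions were rich in GC (74.3% and 73.0%), and the MTERF1 region held an ETS match.

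Outside the autosomes, X and Y there were 28 merged regions, 4 of them in the list labelled NS rottlerin alone.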
